A study of Homo sapiens with 4 samples.

Results

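The 10 genes described here are imprinted genes, that is, genes expressed mainly from the chromosome inherited from 1 parent. H19, MEG3 and CDKN1C are known to be expressed from the maternal copy. IGF2, DLK1, PLAGL1, PEG3, PEG10, MEST and SNRPN are known to be expressed from the paternal copy. They were chosen by gene symbol, and each symbol matched 1 row, so that 10 of the 62696 genes in the count tables were members. The libraries came from NT2 (NTERA-2) cells, a human embryonal carcinoma line that can be differentiated into neurons. The empty vector group had 1 library, labelled wild type and called the control below, and 3 libraries were labelled HYDIN2 knockdown, replicates 1 to 3. All 4 came from cells grown in the same medium with 10% serum, and the labels name no other treatment. The labels do not say how HYDIN2 was targeted, for how long, or whether replicates 1 to 3 were grown or treated separately, so p-values measure only the spread between these libraries, which may be technical. The headers inside the tables differ from these labels: they name a LacZ control and numbered GKAP_KIF27 sets.

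Imprinting is set in the germline by DNA methylation of control regions, and is kept after fertilisation by proteins that hold this methylation in place. The genes lie in clusters in which 1 control region can govern both maternally and paternally expressed neighbours, as with H19 and IGF2. Many of them act on growth: IGF2 is a growth factor, CDKN1C is a cyclin-dependent kinase inhibitor, and PLAGL1 is a zinc finger transcription factor known to act on several other imprinted genes. Counts per gene do not separate the parental alleles, so all values below are total levels, and nothing here measures whether imprinting was kept.

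The hexamer TGCCGC, whose methylated form is the known recognition site of the imprint-keeping zinc finger protein ZFP57, was searched on both strands in the 250 bases upstream of annotated starts in RefSeq's promoter table (GRCh38.p14). On the other strand it reads GCGGCA, and the match on either strand is in capitals. The table held 18 starts for 5 members (PLAGL1, MEST, H19, MEG3 and SNRPN). No entry with 250 upstream bases was found under the symbols IGF2, DLK1, PEG3, PEG10 and CDKN1C. Of the 18 member starts, some of which overlap, 7 had a match, belonging to 4 members, against 4477 of all 35116 starts (12.7%). The MEG3 flanks, which begin at 100825858, 100825868 and 100825882, overlap almost fully and hold the same single match. They are not shown. Matches are thus not independent between starts, and the 12.7% is a share of starts, not of genes. The flanks of 1 PLAGL1 start and 1 SNRPN start had a match on each strand, which 0.760% of all flanks had. The PLAGL1 flank had 75.6% GC and 32 CG pairs and the SNRPN flank 63.6% and 12, against medians of 58% and 11 over all flanks. The shares over all flanks are therefore not those of flanks of like composition. The match is a description of these letters, not of binding. The 3 flanks shown are those with the most matches for PLAGL1, the member with the largest difference below, for SNRPN and for MEST.
PLAGL1 flank, chr6:144008260-144008509, minus strand: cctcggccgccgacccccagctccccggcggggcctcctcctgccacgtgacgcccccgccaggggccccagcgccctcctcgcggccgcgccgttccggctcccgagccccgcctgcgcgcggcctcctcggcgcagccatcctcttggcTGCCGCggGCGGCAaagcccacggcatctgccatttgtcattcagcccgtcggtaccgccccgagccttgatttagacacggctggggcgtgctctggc
SNRPN flank, chr15:24954737-24954986, plus strand: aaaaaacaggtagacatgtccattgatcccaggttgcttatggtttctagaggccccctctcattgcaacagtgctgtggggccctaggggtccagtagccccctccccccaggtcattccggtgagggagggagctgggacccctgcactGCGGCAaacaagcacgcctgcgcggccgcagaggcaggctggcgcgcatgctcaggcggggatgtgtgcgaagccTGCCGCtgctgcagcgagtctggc
MEST flank, chr7:130486097-130486346, plus strand: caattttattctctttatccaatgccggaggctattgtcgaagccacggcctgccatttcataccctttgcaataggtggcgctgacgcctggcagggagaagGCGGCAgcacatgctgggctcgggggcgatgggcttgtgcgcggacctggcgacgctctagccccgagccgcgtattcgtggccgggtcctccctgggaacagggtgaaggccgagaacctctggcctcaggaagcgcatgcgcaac
In the PLAGL1 flank, the matches on the 2 strands are separated by only a pair of bases. The PLAGL1 start that follows this flank, at 144008259, lies next to the annotated start of HYMAI at 144008262, a noncoding RNA inside PLAGL1 on the same strand.

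The control had 25181737 counts, and the knockdown-labelled replicates 1, 2 and 3 had 62904698, 61627449 and 28552070. HYDIN2, the targeted gene, had 12 counts in the control and 150, 112 and 11 in the knockdown-labelled replicates 1, 2 and 3, or 0.50, 2.41, 1.88 and 0.352 CPM (counts scaled to library size with TMM factors). It was thus higher in replicates 1 and 2 than in the control, against the label, and every direction below is that of the libraries labelled knockdown. Replicate 3 stood apart: of 15880 genes, 21.6% were 2-fold or more away from their level in replicate 1 and 22.9% from that in replicate 2, against 0.302% between replicates 1 and 2. The labelled cell type was checked by 10 pluripotency markers, all of which had counts in each library. Their summed level was 6370 CPM in the control and 6947, 7173 and 3957 CPM in the knockdown-labelled replicates 1, 2 and 3. LIN28A alone had 2844 CPM in the control and 3513, 3620 and 1912 CPM in these, so the sum mostly follows a few abundant markers. With bulk RNA, fewer cells expressing a gene and less RNA per cell cannot be told apart. Intervals below are 95% and cover counting error only; they were computed on halved counts, since 65.2% to 68.0% of the nonzero counts were even, a pattern that arises where each read pair adds 2 counts.

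Of the 10 genes, only PLAGL1 passed the 2-fold rule: in all 3 libraries labelled knockdown it was 2-fold or more above the control. No member was at least 2-fold lower in all 3. This rule was met by 3.65% of the 15880 genes tested in the higher direction and by 2.72% in the lower. A gene was tested when the mean of the 2 group mean levels was at least 1 CPM, which 9 members passed and MEG3 did not. PLAGL1, IGF2, CDKN1C and PEG3 were above the control in all 3 knockdown-labelled libraries by any amount, DLK1 and MEST were below it in all 3, and H19, PEG10 and SNRPN lay on both sides. Over all tested genes, 30.1% were above in all 3 and 34.2% below in all 3. The median of the mean log2 difference was 0.11 over the 9 tested members and -0.02 over all tested genes.

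**Figure D1:**
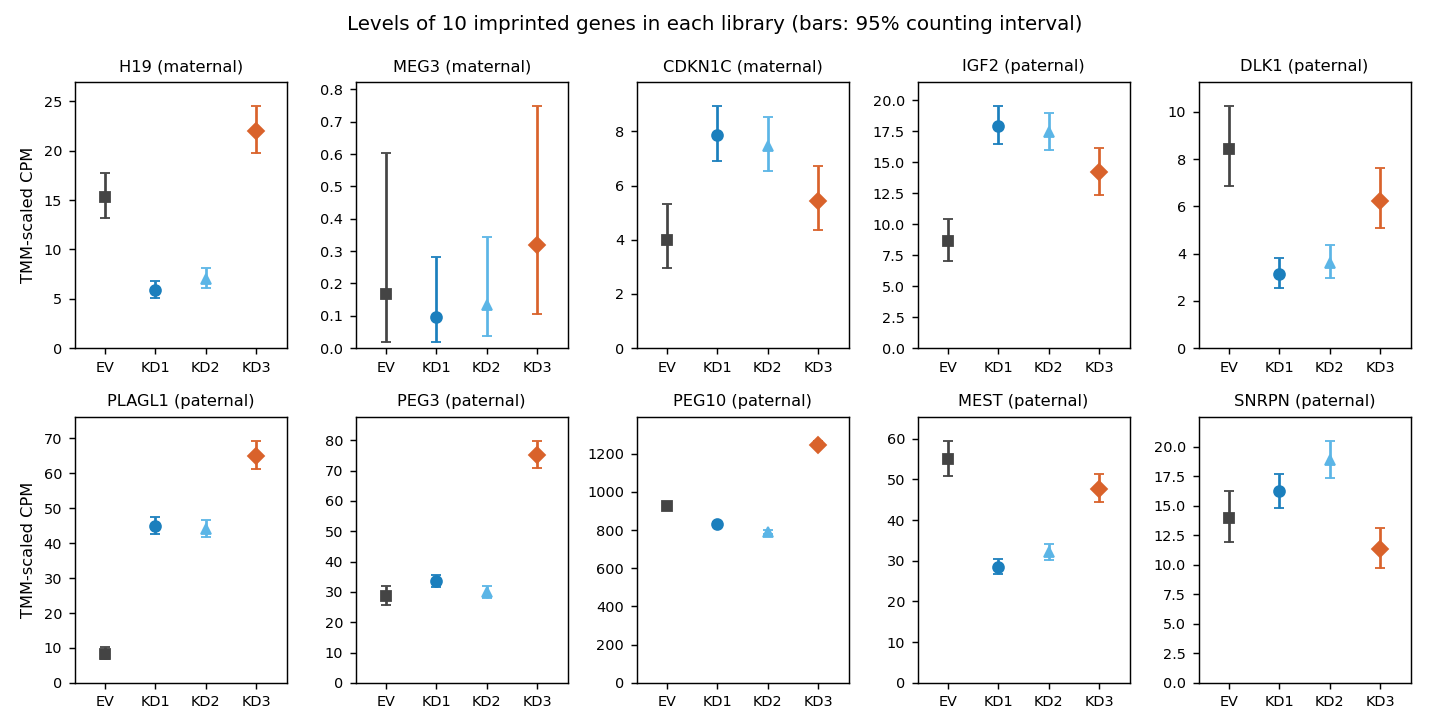
Level of each of the 10 imprinted genes in TMM-scaled CPM (vertical axis, starting at 0 and scaled for each gene) in the control (EV) and the knockdown-labelled replicates 1 to 3 (KD1 to KD3); points are single libraries and bars are 95% Poisson counting intervals. PLAGL1 had 8.37 CPM in the control and at least 44.1 CPM in the other 3, while H19, PEG3 and PEG10 were highest in replicate 3.

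PLAGL1 (ENSG00000118495.21; GRCh38 chromosome 6, 143940300 to 144064599, minus strand) had 201 counts, or 8.37 CPM (interval 6.82 to 10.2), in the control. It had 45.03 CPM (42.7 to 47.5) in the knockdown-labelled replicate 1, 44.1 CPM (41.8 to 46.6) in replicate 2 and 65.1 CPM (61.1 to 69.2) in replicate 3. The knockdown-labelled libraries did not overlap the control, and replicate 3 was the highest. Their mean was 51.4 ± 11.9 CPM (SD, n = 3), and the mean log2 difference was 2.59 ± 0.32 (SD, n = 3), a 6.012-fold higher level. By that difference PLAGL1 ranked 38 from the top of the 15880 tested genes. The ratio to the control was 5.38 (4.41 to 6.69), 5.27 (4.32 to 6.55) and 7.77 (6.35 to 9.69) in replicates 1, 2 and 3. Without replicate 3 the mean log2 difference was 2.37. With smooth trends of the differences on exon length and GC content removed, it was 2.28. In edgeR's quasi-likelihood test the adjusted p of PLAGL1 was 0.358, and in the Wald test of DESeq2 it was 1.64e-05.

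HYMAI, which starts beside the flank shown above, behaved differently from PLAGL1 across the same libraries. It had 9 counts (0.375 CPM) in the control, 31 (0.498 CPM) in replicate 1, 39 (0.653 CPM) in replicate 2 and 149 (4.77 CPM) in replicate 3. Replicate 3 was high and the other 3 libraries were low. HYMAI made up 1.09% (Clopper-Pearson interval 0.594% to 1.74%) of the counts of both genes in replicate 1, 1.46% (0.859% to 2.21%) in replicate 2 and 6.83% (5.37% to 8.45%) in replicate 3. In the control the share was 4.29%, with a wide interval of 1.06% to 9.56%. The 2 genes overlap on the same strand, so some reads cannot be assigned to either with certainty.

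H19 and IGF2 lie in 1 cluster on chromosome 11 and are known to be expressed from opposite parental copies. H19 (ENSG00000130600.21; 1995176 to 2001470, minus strand), a noncoding RNA, had 15.3 CPM in the control and 5.88, 7.05 and 22.0 CPM in the knockdown-labelled replicates 1, 2 and 3. It was low in replicates 1 and 2 and high in replicate 3, on either side of the control. The ratios were 0.383 (0.311 to 0.473), 0.460 (0.375 to 0.562) and 1.44 (1.20 to 1.73). Its log2 differences averaged -0.66 ± 1.03 (SD, n = 3), a mean below the spread. Without replicate 3 the average was -1.29, and H19 then passed the 2-fold rule as lower.

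IGF2 (ENSG00000167244.22; 2129112 to 2149603, minus strand), the fetal growth factor, had 8.62 CPM in the control and 18.0, 17.4 and 14.2 CPM in the knockdown-labelled replicates. All 3 lay above the control, with ratios of 2.08 (1.69 to 2.61), 2.02 (1.64 to 2.53) and 1.64 (1.30 to 2.10). On the log2 scale the mean difference was 0.93 ± 0.18 (SD, n = 3). IGF2 missed the 2-fold rule through replicate 3, and its adjusted p in edgeR's quasi-likelihood test was 0.411. H19 made up 64.0% (58.3% to 69.7%) of the counts of both genes in the control and 60.8% (56.7% to 64.9%) in replicate 3. In replicates 1 and 2 its share was 24.7% (21.6% to 27.9%) and 28.8% (25.5% to 32.2%). The balance of the pair thus split the libraries into the control with replicate 3 and replicate 1 with replicate 2. The total counts of the libraries split the same way, and any part of depth was not tested. INS-IGF2 overlaps IGF2 in the annotation on the same strand, so reads of the shared exons are uncertain.

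CDKN1C (ENSG00000129757.15; chromosome 11, 2883213 to 2885773, minus strand), which holds back the cell cycle, had 4.00 CPM in the control, from 96 counts. It had 7.87, 7.47 and 5.44 CPM in the knockdown-labelled replicates 1, 2 and 3. All 3 were higher, but the ratio in replicate 3, 1.36 (0.944 to 1.98), was not distinguishable from 1 at this depth. The ratios in replicates 1 and 2 were 1.97 (1.44 to 2.74) and 1.87 (1.36 to 2.61). Its mean log2 difference was 0.77 ± 0.29 (SD, n = 3), and with length and GC trends removed it was 1.18. CDKN1B, a kinase inhibitor of the same family that is not imprinted, had 67.1 CPM against 127, 122 and 95.7 CPM. CDKN1A, another, had 43.0 CPM against 50.9, 50.9 and 27.1 CPM.

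KCNQ1OT1, the paternally expressed noncoding RNA of the CDKN1C cluster, had 14.955 CPM in the control and 23.4, 24.1 and 49.2 CPM in the knockdown-labelled replicates. It was highest in replicate 3, where CDKN1C was nearest to the control. KCNQ1OT1 took 78.9% (73.0% to 84.0%) of the counts of the pair in the control, 74.8% (71.9% to 77.5%) and 76.3% (73.5% to 79.0%) in replicates 1 and 2, and 90.0% (87.8% to 92.0%) in replicate 3. After removal of length and GC trends the 3 log2 differences of KCNQ1OT1 were -0.30, -0.26 and 0.01. Its annotated exons cover 91667 bases, more than those of any member, so the length trend may be poorly set there. PHLDA2, a maternally expressed gene of placental growth in the same cluster, had 4.33 CPM against 1.61, 2.23 and 1.34 CPM. It missed the 2-fold rule through replicate 2, at a log2 difference of -0.95.

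DLK1 and MEG3 form the other pair of opposite parental expression, on chromosome 14. DLK1 (ENSG00000185559.16; 100725705 to 100738224, plus strand), a membrane protein related to Notch ligands, had 8.41 CPM (6.85 to 10.2) in the control. It had 3.12 CPM (2.53 to 3.80), 3.602 CPM (2.95 to 4.35) and 6.24 CPM (5.07 to 7.61) in the knockdown-labelled replicates 1, 2 and 3. The counts were close, 202 against 194, 215 and 195, but they came from libraries of different size. All 3 levels were lower than in the control, with ratios of 0.370 (0.277 to 0.494), 0.428 (0.322 to 0.565) and 0.742 (0.553 to 0.985). On the log2 scale the mean difference was -1.02 ± 0.52 (SD, n = 3). Without replicate 3 it was -1.36, and DLK1 then passed the 2-fold rule.

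MEG3 (ENSG00000214548.18; 100779410 to 100861031, plus strand), the maternally expressed noncoding RNA of the cluster, was close to the limit of detection, with 4, 6, 8 and 10 counts in the control and replicates 1, 2 and 3. At 0.0964 to 0.320 CPM no difference between libraries was detectable at this depth. Its neighbours were also low: MEG8 had 0, 2, 2 and 4 counts, MEG9 0, 2, 0 and 2, and RTL1 0, 10, 2 and 2. None of the 5 other listed genes of this cluster passed the minimum level. DLK1 was therefore the only listed gene of the cluster that was tested.

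PEG3 (ENSG00000198300.14; chromosome 19, 56810077 to 56840728, minus strand), a zinc finger protein, had 28.6 CPM in the control and 33.5, 29.9 and 75.2 CPM in the knockdown-labelled replicates 1, 2 and 3. Replicate 3 was high, with a ratio of 2.63 (2.33 to 2.98), and the other 3 libraries were close together. Its log2 differences averaged 0.56 ± 0.73 (SD, n = 3), a mean below the spread. With length and GC trends removed the differences of PEG3 were -0.12, -0.24 and 0.90, so that replicates 1 and 2 no longer lay above the control. PEG3 shares exons with ZIM2 on the same strand, which had 5 to 16 counts. ZNF264, beyond it, was at least 2-fold higher in all 3 knockdown-labelled libraries, at 68.6, 62.2 and 63.6 CPM against 28.3 CPM. ZNF264 did not stay past the rule when length and GC trends were removed.

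PEG10 (ENSG00000242265.6; chromosome 7, 94656325 to 94669695, plus strand), derived from a retrotransposon and needed in the placenta, was the most abundant member. It had 928 CPM in the control and 830, 791 and 1248 CPM in the knockdown-labelled replicates. Replicates 1 and 2 were slightly lower and replicate 3 was higher, with ratios of 0.894 (0.875 to 0.914), 0.853 (0.833 to 0.872) and 1.34 (1.31 to 1.38). On the log2 scale the mean difference was 0.01 ± 0.36 (SD, n = 3). SGCE, which shares its control region and starts on the other strand, had 49.6 CPM against 99.4, 105 and 63.3 CPM, so that replicate 3 was the highest library for PEG10 but the lowest of the knockdown-labelled libraries for SGCE. With length and GC trends removed the log2 differences of SGCE were 0.26, 0.40 and -0.53, so that replicate 3 lay below the control. In the same region, PPP1R9A and CALCR passed the 2-fold rule. PPP1R9A, a neuronal actin-binding protein, had 20.0 CPM against 54.2, 51.5 and 53.9 CPM. CALCR, the calcitonin receptor, had 6 counts (0.250 CPM) against 160, 170 and 67 counts (2.57, 2.85 and 2.14 CPM).

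MEST (ENSG00000106484.16; chromosome 7, 130486171 to 130506465, plus strand), a predicted hydrolase of mesodermal tissue, had 55.0 CPM in the control and 28.6, 32.1 and 47.7 CPM in the knockdown-labelled replicates 1, 2 and 3. All 3 were lower, with ratios of 0.519 (0.469 to 0.575), 0.583 (0.527 to 0.645) and 0.867 (0.779 to 0.963). On the log2 scale the mean difference was -0.64 ± 0.39 (SD, n = 3), short of the 2-fold rule in each library. MESTIT1, the noncoding RNA on the other strand at the MEST start, had 4.00 CPM against 2.59, 2.29 and 2.40 CPM. The strand setting of the authors' counting is not given in the sources used here, so reads of this antisense pair may be mixed.

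SNRPN (ENSG00000128739.23; chromosome 15, 24823637 to 24978723, plus strand), a spliceosome protein of the Prader-Willi region, had 13.96 CPM in the control and 16.2, 18.8 and 11.3 CPM in the knockdown-labelled replicates. Replicate 2 was the highest and replicate 3 the lowest. The ratio excluded 1 in replicate 2, at 1.35 (1.14 to 1.62), and included it in replicate 1, at 1.16 (0.975 to 1.39), and in replicate 3, at 0.810 (0.652 to 1.01). SNURF shares exons with SNRPN, and SNHG14 overlaps its 3' end, so the SNRPN counts are uncertain. SNHG14, the long transcript that hosts small nucleolar RNAs, had 713 CPM against 1142, 1097 and 848 CPM. With length and GC trends removed its log2 differences turned negative, at -0.12, -0.15 and -1.14. Its annotated exons cover 43324 bases, more than those of any member, so the length trend may be poorly set there. NDN, a paternally expressed neighbour, had 38.2 CPM against 14.6, 15.7 and 24.4 CPM, an order of libraries like that of DLK1 and MEST. ATP10A had 5.42 CPM against 2.17, 1.81 and 2.69 CPM and missed the 2-fold rule by a small margin in replicate 3, at a log2 difference of -0.998.

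**Figure D2:**
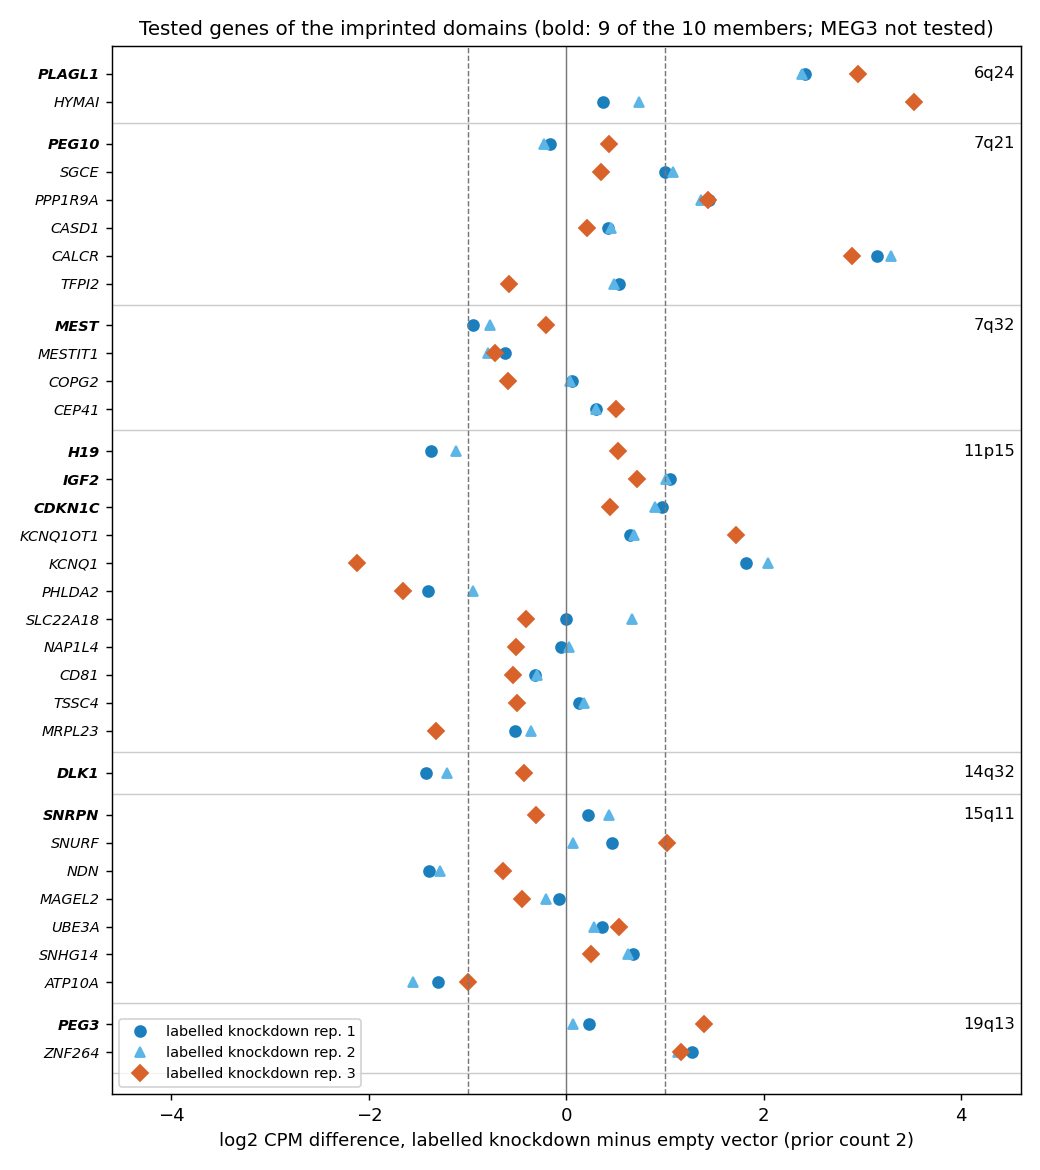
Log2 CPM difference from the control (horizontal axis, prior count 2) of each tested gene listed for the imprinted clusters, with 1 symbol per knockdown-labelled replicate; members are in bold and dashed lines mark 2-fold. PLAGL1, PPP1R9A, CALCR and ZNF264 have all 3 symbols beyond the upper line, and no gene has all 3 beyond the lower.

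Levels can be compared between genes only per length of annotated exons, here as CPM per kb of all exons of a gene, which understates genes with many rarely used exons. In the control the order was PEG10 (139 CPM per kb), MEST (11.5), H19 (5.29), SNRPN (4.09), PEG3 (2.93), CDKN1C (1.61), DLK1 (1.58), IGF2 (1.24), PLAGL1 (0.959) and MEG3 (0.00717). Only MEG3 was below PLAGL1 in that order. In the mean of the knockdown-labelled libraries PLAGL1 came after PEG10 (143) and MEST (7.53), at 5.89 CPM per kb. There the range of PLAGL1 over the 3 libraries, 5.05 to 7.45 CPM per kb, overlapped those of MEST (5.96 to 9.94), PEG3 (3.06 to 7.70), SNRPN (3.31 to 5.51) and H19 (2.03 to 7.60), so these ranks did not differ beyond the spread. CDKN1C and IGF2, at 1.61 and 1.24 CPM per kb in the control, had overlapping ranges of 2.20 to 3.18 and 2.03 to 2.57 in the knockdown-labelled libraries. DLK1, at 0.587 to 1.18 CPM per kb, lay below both there.

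The members were also read without replicate 3. Replicates 1 and 2 then had PLAGL1 at least 2-fold higher and H19 and DLK1 at least 2-fold lower, where 9.06% and 5.97% of 15728 genes passed. Replicate 3 was at least 2-fold above both other knockdown-labelled libraries in 2 members, H19 and PEG3, and at least 2-fold below both in none. Over all tested genes those shares were 6.2% and 13.1%. The level of H19 in replicate 3 was 3.41 times the mean of replicates 1 and 2, and that of PEG3 was 2.37 times. KCNQ1, a potassium channel gene in the CDKN1C cluster, went the other way. It had 0.708 CPM in the control and 2.62, 3.07 and 0.128 CPM in replicates 1, 2 and 3. The counts were 17, 163, 183 and 4. In replicate 3 it was below a floor of 6 counts, or 3 read pairs (0.192 CPM), so its level there is uncertain.

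edgeR's quasi-likelihood test, whose spread comes from the 3 knockdown-labelled libraries alone, called 0 of 26029 genes (0.0%) at an adjusted p of 0.05 and 3023 at an unadjusted p under 0.05. Of the members, 2 were under 0.05 unadjusted, PLAGL1 and IGF2. The adjusted p of the 10 members ran from 0.358 to 0.983 in edgeR, the lower value being also the smallest of all genes. That value, of PLAGL1, is a tie that the adjustment gave to many genes. Before adjustment the edgeR p of PLAGL1 was 1.01e-03, and that of IRS1, in the same tie, was lower at 6.28e-04. The Wald test of DESeq2 called 388 genes (2.51%), of which PLAGL1 was the only member. Without replicate 3, edgeR called 7 members (PLAGL1, MEST, H19, IGF2, DLK1, CDKN1C and PEG10), while it called 11177 of 25016 genes (44.7%) over the whole table, and its spread then came from 2 libraries that were nearly alike. With 1 empty vector library there is no replicate check on that side, and a permutation of the 4 libraries could not give a p below 0.25.

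**Figure D3:**
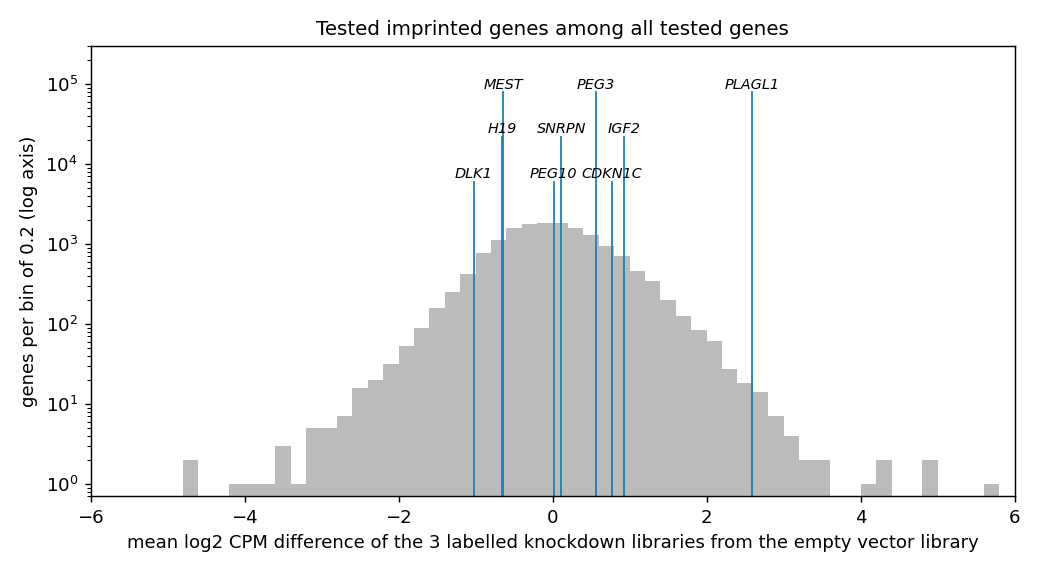
Distribution over 15880 tested genes of the mean log2 CPM difference of the knockdown-labelled libraries from the control (horizontal axis; 2 genes beyond the axis are not drawn), as genes per bin of 0.2 on a log axis, with the 9 tested members as vertical lines whose height has no meaning. PLAGL1 lies at 2.59 and the other 8 lie between -1.02 and 0.93.

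Beyond the members, a list of 70 further genes was examined, 46 listed for lying near the members and 24 listed as imprinted elsewhere. Of the 70, 67 were found by symbol and 42 were tested. At least 2-fold higher in all 3 knockdown-labelled libraries were 4 of the 42 (CALCR, PPP1R9A, ZNF264 and IGF2R), and 0 were lower in all 3. Their median of the mean log2 difference was 0.17, against -0.02 over all tested genes, of which 3.65% were higher and 2.72% lower by this rule. After removal of the length and GC trends, CALCR alone of the 4 passed. CALCR had 0.250 CPM in the control and met the minimum of 1 CPM only through the knockdown-labelled libraries. With a minimum of 5 CPM it dropped out, while the other 3 stayed. GRB10, an imprinted adaptor that restrains insulin and IGF signalling, had 99.5 CPM against 170, 164 and 145 CPM; with the trends removed its log2 difference in replicate 3 was 0.07. GNAS, the stimulatory G protein subunit, was at 1154 CPM against 974.9, 1052 and 1084 CPM, and NAA60 at 70.1 CPM against 77.6, 78.5 and 77.7 CPM. WT1 had 5.58 CPM against 2.79, 2.19 and 2.56 CPM, and missed the rule through replicate 1 at a log2 difference of -0.99.

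Proteins that keep imprints were a list of 15 genes, of which 10 were tested. Of these, 0 were higher in all 3 (3.65% of all tested genes) and 1 was lower in all 3 (2.72%). That gene was NLRP7, an oocyte factor of maternal imprints, with 2.75 CPM in the control and 0.964, 0.905 and 0.512 CPM in the knockdown-labelled replicates. ZFP57, which binds the methylated hexamer, was near the floor with 6, 6, 36 and 0 counts, where 0 counts in replicate 3 allow up to 0.192 CPM by a floor of 6 counts, that is, 3 read pairs. ZNF445, the other zinc finger protein of imprint upkeep, had 31.7 CPM against 59.4, 57.3 and 93.2 CPM, past 2-fold in replicate 3 only; with length and GC trends removed its log2 differences were 0.34, 0.34 and 0.56, short of 2-fold in each. TRIM28, their shared partner, had 312 CPM against 214, 224 and 228 CPM. DNMT1, the maintenance methyltransferase, had 288 CPM against 253, 250 and 357 CPM. UHRF1, which brings DNMT1 to newly copied DNA, had 54.4 CPM against 31.3, 31.1 and 71.9 CPM, and CTCF, the insulator protein of the H19 and IGF2 cluster, had 132 CPM against 94.9, 97.0 and 161 CPM. DNMT1, UHRF1 and CTCF, like H19, were below the control in replicates 1 and 2 and above it in replicate 3. With length and GC trends removed, DNMT1 and CTCF were below it in replicate 3 as well, at log2 differences of -0.12 and -0.27.

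IGF2 acts through IGF1R and a form of INSR, is cleared by IGF2R, itself imprinted in the mouse, and signals on through IRS1 and IRS2. Of 15 listed genes of this axis 13 were tested. Of these, 4 were at least 2-fold higher in all 3 knockdown-labelled libraries and 0 were lower, with a median mean log2 difference of 0.68. Over all tested genes, 3.65% were higher and 2.72% lower by this rule, and the median was -0.02. IGF1R had 128 CPM in the control and 290, 265 and 395 CPM in replicates 1, 2 and 3. IGF2R had 57.4 CPM against 142, 133 and 185 CPM. IRS1 had 29.5 CPM against 110, 99.5 and 106 CPM, and IRS2 had 23.6 CPM against 61.0, 61.6 and 69.6 CPM. That the control was the lowest of the 4 libraries for these 4 genes follows from the rule. With length and GC trends removed, IRS1 (1.61, 1.53 and 1.35) and IRS2 (1.28, 1.34 and 1.32) stayed past a log2 difference of 1 in each library, while IGF1R (0.75, 0.69 and 0.87) and IGF2R (0.77, 0.74 and 0.75) did not. INSR had 35.7 CPM against 47.3, 47.1 and 61.4 CPM; with the trends removed its log2 differences were 0.07, 0.12 and 0.22. Among the binding proteins, IGFBP3 had 22.5 CPM against 73.5, 66.2 and 38.9 CPM, and IGFBP2 had 258 CPM against 270, 301 and 140 CPM. IGFBP5 had 3.62 CPM against 7.40, 6.45 and 12.8 CPM, and IGFBP4 had 67.4 CPM against 67.1, 66.2 and 44.6 CPM. IGFBP6 was lower in all 3, at 2.08 CPM against 0.996, 1.07 and 0.512 CPM, and missed the rule through replicate 2 at a log2 difference of -0.93. IGF2BP3 was also lower in all 3, at 278 CPM against 189, 197 and 182 CPM, while IGF2BP1 was higher, at 608 CPM against 1034, 1013 and 876 CPM.

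**Figure D4:**
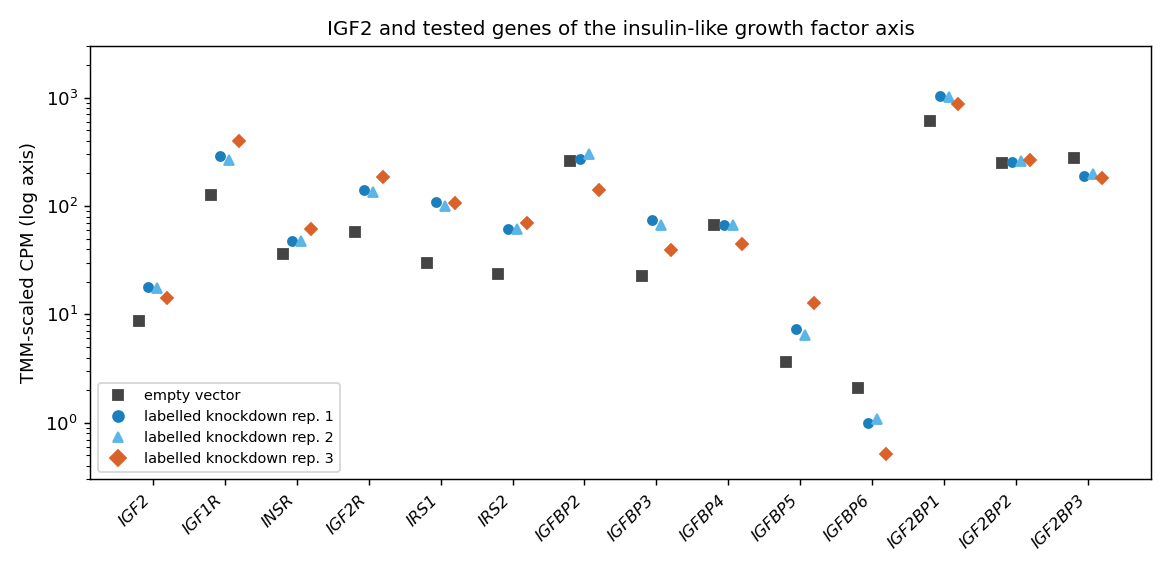
Level in TMM-scaled CPM (log axis) of IGF2 and of the 13 tested genes of the insulin-like growth factor axis, with 1 symbol per library. IGF1R, IGF2R, IRS1 and IRS2 were higher by at least 2-fold in each labelled knockdown library, and IGF2 was higher by 2.08, 2.02 and 1.64 times.

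Some markers of other cell types also differed between the control and the knockdown-labelled libraries, in both directions, and their part in the results above was not tested. Of 8 trophoblast markers 4 were tested and 2, HAND1 and TFAP2A, were at least 2-fold higher in all 3; the summed level of the list was 38.6 CPM in the control and 99.1, 93.2 and 219 CPM in replicates 1, 2 and 3. KRT7, also of this list, had 7.17 CPM against 11.4, 12.3 and 4.45 CPM. CGB3 had no counts in any library, CGA had 2, 0, 0 and 0 counts and ELF5 had 0, 0, 5 and 0. Of 8 yolk sac and endoderm markers 2 were tested and 0 passed, though both were above the control in all 3. GATA4 had 2.37 CPM against 4.61, 4.14 and 11.3 CPM, and GATA6 had 1.79 CPM against 4.83, 3.43 and 7.43 CPM. The summed level of the list was 5.21 CPM against 10.4, 9.10 and 21.1 CPM, with AFP at 0, 8, 10 and 6 counts. Of 8 mesenchyme markers 7 were tested and 2, POSTN and PRRX1, passed as higher, with a summed level of 123 CPM against 239, 220 and 172 CPM. COL3A1, of the same list, had 4.04 CPM against 0.739, 0.570 and 6.21 CPM, lower in replicates 1 and 2 and higher in replicate 3, and LUM had 16.2 CPM against 23.1, 24.3 and 9.12 CPM. Of 8 neural markers 6 were tested and 2, PAX6 and MAP2, passed as higher, with a summed level of 190 CPM against 364, 341 and 321 CPM. PAX6 had 0 counts in the control against 957, 784 and 92, so it met the minimum level only through the knockdown-labelled libraries. With length and GC trends removed MAP2 no longer passed, at log2 differences of 0.92, 0.90 and 1.27. Of the 10 pluripotency markers 0 passed in either direction. L1TD1 (-0.97, -0.98 and -1.06) and TERT (-1.42, -1.24 and -0.90) came near it as lower, and passed as lower without replicate 3. POU5F1, DPPA4 and TDGF1 were also below the control in all 3, SALL4 was above it in all 3, and the others lay on both sides. Over all tested genes, 3.65% passed the rule as higher and 2.72% as lower.

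The genes most like a member were found by the distance between the 3 log2 differences from the control, for the 3 members whose level varied most over the 4 libraries. With 3 values per gene and 15880 genes, close neighbours are found for most patterns. Nearest to PLAGL1 was PRRX1, a mesenchymal homeobox gene, at a distance of 0.037, with log2 differences of 2.44, 2.42 and 2.97, followed by GRHL2 and LINC01963. Nearest to H19 were GRM2, PSEN2 and LRRC3, at distances of 0.079, 0.096 and 0.13. Nearest to DLK1 were RASGEF1C, DHCR7 and MYO19, at distances of 0.033, 0.076 and 0.10.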

How the data were processed

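Total RNA of NT2 cells was depleted of ribosomal RNA and made into strand-specific (dUTP) libraries, per the labels' protocols. The authors deposited raw counts per gene, 1 table per library with 62696 genes; STAR 2.7.11b, featureCounts 2.0.6, DESeq2 and GRCh38 are named in the submitters' processing notes, while the strand setting and annotation release are not given in the sources used here. Each table was tied to its sample by the series record and to its group by the sample title. Counts were scaled with TMM factors (edgeR 4.0.16, R 4.3.3) of 0.953 (empty vector), then 0.990, 0.969 and 1.09 in the order of replicate number. A prior count of 2 was added for log2 CPM.

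A gene was counted when it lay at least 1 log2 unit from the empty vector library, the same way, in each labelled knockdown library, among genes with a mean of the group means of at least 1 CPM. edgeR's quasi-likelihood test (genes kept by filterByExpr, Benjamini-Hochberg adjustment over 26029 genes) and, as an alternative, DESeq2 1.42.0 ran on all genes. The rule and edgeR's test were also run on simulated counts as a check of the code. The simulated libraries all had the same small spread, with no library standing apart as replicate 3 does. The simulation therefore cannot show how the rule or the test behaves on these data. Poisson and Clopper-Pearson intervals cover counting error only. Coordinates and exon lengths came from GENCODE 29 (GRCh38), which matched 58269 of the identifiers. Replicates 1 and 2 were kept as separate samples, since their counts differed beyond sampling noise (chi-square per gene 6.44 on halved counts).

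All 10 members are named; other genes are named where they passed the rule, stand beside a member in its cluster, or were listed for imprint upkeep, the IGF axis or the kinase inhibitors; GRB10, GNAS, NAA60, WT1, ATP10A, NDN, PHLDA2, SGCE, KCNQ1, IGFBP2 and IGFBP3 were singled out after their values were seen. So were the other IGFBP and IGF2BP genes and the single cell type markers named without passing the rule. The members and lists were chosen with earlier results of these data known. Alternatives were other scalings, level minima, prior counts and fold sizes, removal of lowess trends (span 0.3) on exon length and GC content, and omission of each labelled knockdown library.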

Additional observations from a re-analysis of the deposited data

How the results depend on the processing

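No paired analysis was possible because just 1 empty vector library, without a replicate number, was there to pair. PLAGL1 was counted as higher under all 13 alternatives run for it, but some of these could not fail for a gene past 2-fold in each library. Those were the 1.5-fold rule, the rule on the mean difference and the minimum of 0.1 CPM. Leaving out a library could fail only through rescaling. A 1.5-fold rule added IGF2, for 2 higher members. The number of lower members, 0 as reported, was 1 by a rule on the mean difference (DLK1), and 0 to 2 when 1 labelled knockdown library was left out, with 2 (H19 and DLK1) without replicate 3. Of the further listed genes, the 4 counted as higher became 7 by the 1.5-fold rule and 3 (without CALCR) at a minimum of 5 CPM. They became 1 (CALCR) after removal of length and GC trends, and 4 to 5 with a library left out. The 0 counted as lower became 1 with DESeq2 size factors, upper quartile scaling, a minimum of 0.1 CPM, a prior count of 0.5 or trend removal, 6 by the 1.5-fold rule, 5 by the mean, and 2 to 4 with a library left out. edgeR's test called 0 members and 0 genes, also with RLE scaling or without a filter. With a library left out it called 0 to 7 members and 17 to 11177 genes, the most without replicate 3, and DESeq2 called 1 member and 388 genes; the cause was not tested. Of 89 recomputed mean differences of members, 88 stayed within 1 SD of the reported value, and CDKN1C after trend removal did not. That SD came from the same 3 differences, so leaving out 1 library could hardly move a mean past it, and the tally does not measure stability. Without replicate 3, H19 went from -0.66 to -1.29 and PEG3 from 0.56 to 0.10, both within it. Of the 89, 9 changed sign, none of them of PLAGL1. Depth limits MEG3, HYMAI and ZFP57 most, and also KCNQ1 in replicate 3.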
